A study of Caenorhabditis elegans with 2 samples.

Results

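The genes described here encode the J-domain proteins (dnj), the subunits of the cytosolic chaperonin CCT (cct) and the subunits of prefoldin (pfd) of Caenorhabditis elegans. They were taken by symbol from the protein-coding genes of the Ensembl annotation of assembly ce11. The rule on symbols used no measured value, but it was chosen with earlier results of these data known. The choice gave 43 genes of 19973, made up of 29 dnj, 8 cct and 6 pfd genes. For each gene the ChIP-seq peak with the highest signal whose summit lay within 1000 bp of one of its transcript starts was taken from the authors' ranked list of candidate peaks.

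Chromatin immunoprecipitation followed by sequencing was carried out with an antibody against GFP on BED-2, whose BED-type zinc finger is a DNA-binding domain. Both samples were whole worms of strain RW12335, in which TY1::EGFP::3xFLAG::bed-2 had been inserted by CRISPR at the bed-2 gene on chromosome III, so the tagged protein is expressed from its own locus. The worms were young adults of 63 hours, synchronised by bleaching and starvation as L1 larvae, and chromatin was sheared by sonication. There was 1 group with 2 biological replicates, both from the same strain, and no second stage, tissue or genotype, so no comparison between conditions exists and no p-value is given. A peak from whole worms averages all cell types, so strong binding in few cells and weak binding in many cannot be told apart. An input control is named by the submitters and was not analysed here.

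J-domain proteins are co-chaperones of Hsp70. They bring it unfolded proteins and, through a conserved histidine-proline-aspartate tripeptide in the J domain, trigger the ATP hydrolysis that clamps it onto them. CCT is a ring-shaped chaperonin in which each position is held by a different subunit, and it folds actin and tubulin among other proteins. Prefoldin is a complex of small coiled-coil subunits that hands newly made actin and tubulin chains to CCT.

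The symbols were checked against the protein products, translated from the RefSeq coding sequences. The histidine-proline-aspartate tripeptide was present in 28 of 29 dnj products and in no isoform of dnj-5. It was present in 1 of 8 cct products (cct-6) and in 0 of 6 pfd products. The median product length was 395 residues for dnj (112 to 915), 541 for cct (529 to 549) and 133.5 for pfd (117 to 185).

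A peak of the authors' conservative list, which keeps peaks ranked alike in both replicates, lay within 1000 bp of a start of 3 of the 43 genes (6.98%, 95% exact Clopper-Pearson interval 1.46 to 19.1). They are dnj-28, dnj-13 and cct-7, and such genes are referred to as called. Of all protein-coding genes 2.62% were called (523 of 19973), a share inside that interval, so the count alone does not set these families apart. All 3 summits lay upstream of the gene, between 143 and 298 bp from its start. Intervals cover counting error over genes only, and the depth of the samples is unknown because the lists hold no read counts.

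The sequences around the summits of 2 called genes, dnj-13 and cct-7, are shown because BED-2 signal passed the threshold there. Those of dnj-14, cct-8 and dnj-19 are shown because they are the 3 of the 5 highest uncalled genes whose windows hold a searched word. Each is 101 bp long and centred on the summit, is written 5′ to 3′ on the strand of the gene, and comes from the RefSeq genome of assembly WBcel235 (ce11). Capitals mark matches, searched on both strands, to the word ACGCGC, to the word GTACAC, to the heat shock type words GAANNTTC and TTCNNGAA, or to the E-box CACGTG. The windows span chrII:11545414-11545514 for dnj-13, chrV:1871898-1871998 for cct-7, chrX:4712038-4712138 for dnj-14, chrIV:1094333-1094433 for cct-8 and chrV:5505162-5505262 for dnj-19.
dnj-13: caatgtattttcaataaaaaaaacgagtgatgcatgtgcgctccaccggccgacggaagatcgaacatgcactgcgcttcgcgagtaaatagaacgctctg
cct-7: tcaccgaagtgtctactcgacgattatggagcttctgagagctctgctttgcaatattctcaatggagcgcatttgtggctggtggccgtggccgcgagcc
dnj-14: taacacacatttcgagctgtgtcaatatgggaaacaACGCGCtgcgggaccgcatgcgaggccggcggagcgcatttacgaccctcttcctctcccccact
cct-8: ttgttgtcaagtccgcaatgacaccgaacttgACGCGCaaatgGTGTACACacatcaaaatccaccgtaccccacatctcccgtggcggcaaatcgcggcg
dnj-19: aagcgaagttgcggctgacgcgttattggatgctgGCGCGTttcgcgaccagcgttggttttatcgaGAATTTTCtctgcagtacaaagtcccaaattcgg

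The windows of dnj-13 and cct-7 held none of the 5 words, nor did those of dnj-28 and of dnj-20 and pfd-5, the remaining strong uncalled genes. ACGCGC stood in the windows of dnj-14, cct-8 and, as its reverse complement, dnj-19. That of cct-8 also held GTACAC on both strands, as overlapping copies that are printed as 1 run of capitals. The run of capitals near the 3′ end in dnj-19 is a match to GAANNTTC, which with TTCNNGAA has the spacing of paired binding units of heat shock factor.

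The strongest candidate was that of dnj-28 (WBGene00001046). Its signal, a value of the authors' peak caller with no stated unit, was 283 in the list of both replicates, 141 in replicate 1 and 135 in replicate 2. Both replicates were thus high and close to each other, and the thresholded list of each replicate alone held a peak within reach of dnj-28. Of the 16092 protein-coding genes with any candidate, dnj-28 held rank 12, and 99.9% had a lower signal.

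The dnj-28 peak spanned chrI:2996273-2996458, upstream of the gene and outside annotated genes, with its summit 143 bp from the start. Its global IDR, the authors' irreproducible discovery rate, which is low where a peak ranks alike in both replicates, was 1e-05, where the deposited values end. No other candidate lay within reach of the gene. The start of dnj-28 was the nearest of all, and that of the divergent neighbour supr-1 lay 431 bp from the summit, so the peak was within reach of both gene starts.

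The product of dnj-28 has 494 residues, with the tripeptide at position 408, near its C-terminal end. It was aligned with that of dnj-7 (491 residues, tripeptide at 407), the worm relative of the endoplasmic reticulum co-chaperone p58IPK, and had 263 identical of 486 aligned positions (54.1%). At dnj-7 the highest candidate had a signal of 35.3, lay 902 bp inside the gene in a coding exon, and overlapped no peak in either replicate's own ranked list. The list of both replicates also gives the signal of a matched peak from each list compared, and held 11.1 and 27.0 there. Genes with similar products thus had unlike candidates, with dnj-28 at rank 12 and dnj-7 at rank 5327.

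The second called gene was dnj-13 (WBGene00001031), a class B co-chaperone that acts with HSP-1 and HSP-110 in the disaggregation of proteins in C. elegans. Its peak at chrII:11545304-11545623 had a signal of 80.7, with 40.6 in replicate 1 and 44.3 in replicate 2, and a global IDR of 0.00198. The replicates differed little, yet the thresholded list of replicate 2 alone held a peak within reach of dnj-13 and that of replicate 1 held none. Signal was lower at 97.7% of genes with a candidate.

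The dnj-13 summit lay 237 bp upstream of the gene, at 0 bp from where F54D5.22 (WBGene00201944), a non-coding RNA, begins. A second non-coding RNA of the same name on the other strand (WBGene00195341) started 149 bp away, and the divergent gene F54D5.9 started 636 bp away. The position was also in an intron of dhgd-1. Of the protein-coding starts that of dnj-13 was nearest. The 3 other candidates within reach of dnj-13 had signals of 46.4, 24.6 and 17.8.

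The third called gene was cct-7 (WBGene00020391), which encodes the eta subunit of CCT. Its peak at chrV:1871788-1872107 had a signal of 77.7, with 40.5 in replicate 1 and 36.03 in replicate 2, and a global IDR of 0.00492. It was in neither replicate's own thresholded list, so the call rested on comparing the replicates. The summit lay outside annotated genes, 298 bp upstream of the start of cct-7, but 32 bp from that of T10B5.13, a non-coding RNA, and 141 bp from that of the divergent gene T10B5.4. Which of these starts the peak belongs to was not tested. The next candidate of cct-7, 390 bp downstream of one of its starts, had a signal of 30.9.

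**Figure D1:**
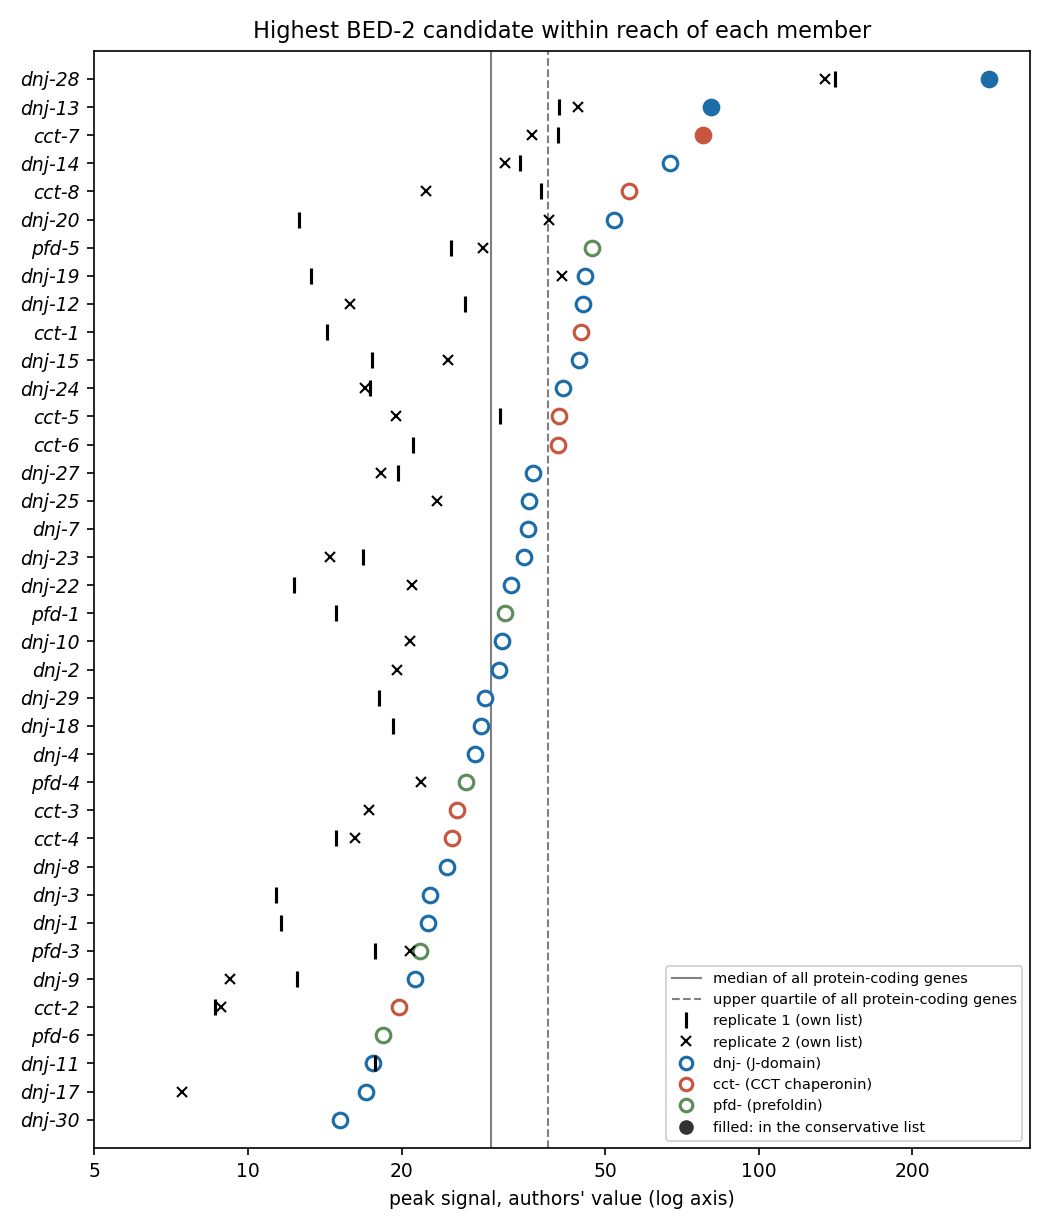
Signal of the highest candidate (log axis, the authors' value without unit) for the 38 genes that had one, with the values in each replicate's own ranked list as bars (replicate 1) and crosses (replicate 2); filled circles are in the conservative list, and lines mark the median and upper quartile of all protein-coding genes. dnj-28 stands at 283, far above dnj-13 at 80.7 and cct-7 at 77.7, and the other genes fall without a gap to 15.2.

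Among the uncalled genes dnj-14 had the highest signal, 67.0, with 34.1 in replicate 1 and 31.8 in replicate 2. It encodes the worm cysteine string protein, a co-chaperone of synaptic vesicles. Its peak at chrX:4711928-4712247 lay 340 bp upstream, in an exon of the non-coding RNA DL2.2 whose start was 66 bp away, and the divergent gene glit-1 started 191 bp away. In the ranked list the matched pair of replicate peaks had signals of 16.9 and 31.8, and the global IDR was 0.237. The smaller of those is below the 34.1 of replicate 1's own list, so the pair given for the IDR is not the highest overlapping peak of each replicate. A peak of the thresholded list of replicate 1 alone lay within reach of dnj-14. So did a peak of the optimal list, the authors' other thresholded list of the series. Whether these are the peak described here was not checked.

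The gene of the theta subunit, cct-8, followed with a signal of 55.6. Its values were 37.5 in replicate 1 and 22.3 in replicate 2, and its global IDR was 0.0942. The peak at chrIV:1094223-1094542 lay 463 bp upstream of cct-8 but only 158 bp from the divergent Y55F3AR.2. It was 1 of 7 candidates within reach of cct-8, of which the next had signals of 41.0 and 38.6.

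The gene dnj-20, whose product belongs to the co-chaperones of the endoplasmic reticulum lumen, had a signal of 52.1, with 12.6 in replicate 1 and 38.8 in replicate 2. The gene dnj-19, a class A co-chaperone, had 45.6, with 13.3 in replicate 1 and 41.2 in replicate 2. In both genes replicate 2 was about as high as at dnj-13 and cct-7 while replicate 1 was low, and the global IDR was 0.583 and 0.519. The dnj-20 summit lay 401 bp upstream of one of its own starts, in an intron of its longer transcripts, and the dnj-19 summit lay 41 bp from the start of nhr-47, a nuclear receptor gene. Another candidate of dnj-20, 376 bp downstream of a start, had a lower signal of 33.0 but also a lower global IDR. Its replicates were closer, with 21.3 in replicate 1 and 24.97 in replicate 2.

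The highest prefoldin gene was pfd-5, with a signal of 47.1 from 24.9 in replicate 1 and 28.9 in replicate 2. Here too the matched pair was lower, at 10.6 and 28.9, and the global IDR was 0.672. The summit lay 294 bp upstream, outside annotated genes, in a window whose GC content of 22.8% was the lowest of the 38. The printed 101 bp windows of dnj-14, cct-8, cct-7, dnj-19 and dnj-13 had 58.4%, 54.5%, 54.5%, 50.5% and 47.5%. That of dnj-20 had 54.5%, and the value at dnj-28, the strongest candidate, is not given here. The median was 41.6% over the 38 genes, 41.6% over all genes with a candidate and 49.5% over called genes.

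A candidate of any strength lay within reach of 38 of the 43 genes (88.4%), against 80.6% of all protein-coding genes. The 5 genes without one were dnj-5, dnj-16, dnj-21, dnj-26 and pfd-2, of which dnj-21 encodes a J-domain subunit of the import motor of mitochondria. The ranked list holds candidates far below the threshold as well as those above it. Among the genes with a candidate the called share was 3 of 38 (7.89%, interval 1.66 to 21.4), against 3.25% of all.

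Over the 38 genes the median signal was 32.3 (quartiles 24.6 and 44.7), against 29.8 over all genes with a candidate (22.7 and 38.7) and 91.3 over called genes. Of the 38, 22 (57.9%) were above the median of all genes, 14 (36.8%) above its upper quartile and 6 (15.8%) above its 90th percentile, while 9 (23.7%) were below its lower quartile. The bulk of the families thus sat near the middle of all genes, and more of them than of all genes were above the upper quartile. No test was made of these shares.

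The signals of the cct and pfd genes fell inside the range of the dnj genes. CCT genes had a median of 40.5 and ranged from 19.7 at cct-2, the beta subunit, to 77.7 at cct-7. Of the 8, 5 were above the upper quartile of all genes, and after cct-7 and cct-8 came cct-1 with 44.8, cct-5 with 40.6 and cct-6 with 40.4. The lower 3 were cct-3 with 25.6, cct-4 with 25.1 and cct-2, each with its summit downstream of the start in a coding exon of its own gene. In the upper 5 the summit lay 265 to 486 bp upstream of the gene, and in each of these another gene's start was nearer.

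The nearer starts in those 5 were of different kinds. At cct-1 it was mig-5, a Dishevelled gene, at 155 bp. At cct-6 the summit stood in the 5′ UTR of alh-9, 31 bp from its start. At cct-5 it was F25F2.1 at 255 bp, and the candidate there had 31.1 in replicate 1 and 19.5 in replicate 2. For cct-1 and cct-6 replicate 2's own ranked list held no overlapping peak, while replicate 1 had 14.3 and 21.05. The ranked list, which also gives the signal of a matched peak from each of the lists compared, held a second value for both, 32.2 at cct-1 and 18.6 at cct-6, so at cct-1 the second was the higher. In cct-5, cct-7 and cct-8 replicate 1 was the higher.

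Prefoldin genes had a median of 26.8 over the 5 with a candidate, and 1 of them, pfd-5, was above the upper quartile of all genes. The others were pfd-1 with 31.8, pfd-4 with 26.8, pfd-3 with 21.7 and pfd-6 with the lowest, 18.4. None was called. At pfd-4 the start of B0035.3 was 38 bp from the summit against 171 bp for pfd-4. At pfd-1 the summit was in the 3′ UTR, 101 bp from the start of C08F8.2 against 368 bp from an internal start of pfd-1.

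J-domain genes had a median of 32.7 over the 25 with a candidate and spanned the whole range, from 283 at dnj-28 to 15.2 at dnj-30. The lowest 3 of all 38 genes were dnj-11 with 17.5, dnj-17 with 17.0 and dnj-30 with 15.2, and their summits lay 529, 351 and 975 bp downstream of a start, which at dnj-30 is an internal one. Replicate 1 alone had a value at dnj-11 (17.7), replicate 2 alone at dnj-17 (7.42), and neither at dnj-30. The value of replicate 1 at dnj-11 was close to the median of 17.6 of that replicate over all genes with both values.

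Of the other J-domain genes, dnj-12, a class A co-chaperone, had 45.3, with 26.6 in replicate 1 and 15.8 in replicate 2. Its product shares 44.1% of 397 aligned positions with that of dnj-19, whose signal was 45.6, so this pair had nearly the same joint signal with the replicates in opposite order. The gene dnj-15 had 44.5 (17.5 and 24.6 in replicates 1 and 2) and dnj-24 had 41.4 (17.3 and 16.9). The dnj-15 summit lay 64 bp inside the gene, and the dnj-24 summit lay 117 bp downstream of an internal start, in an intron. The remaining J-domain genes had signals of 36.2 at dnj-27 and less, among them dnj-25, the worm auxilin, with 35.4 and dnj-10, a mitochondrial co-chaperone, with 31.4. The rest, dnj-1, dnj-2, dnj-3, dnj-4, dnj-8, dnj-9, dnj-18, dnj-22, dnj-23 and dnj-29, lay between 21.2 at dnj-9 and 34.7 at dnj-23, all below the upper quartile of all genes.

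**Figure D2:**
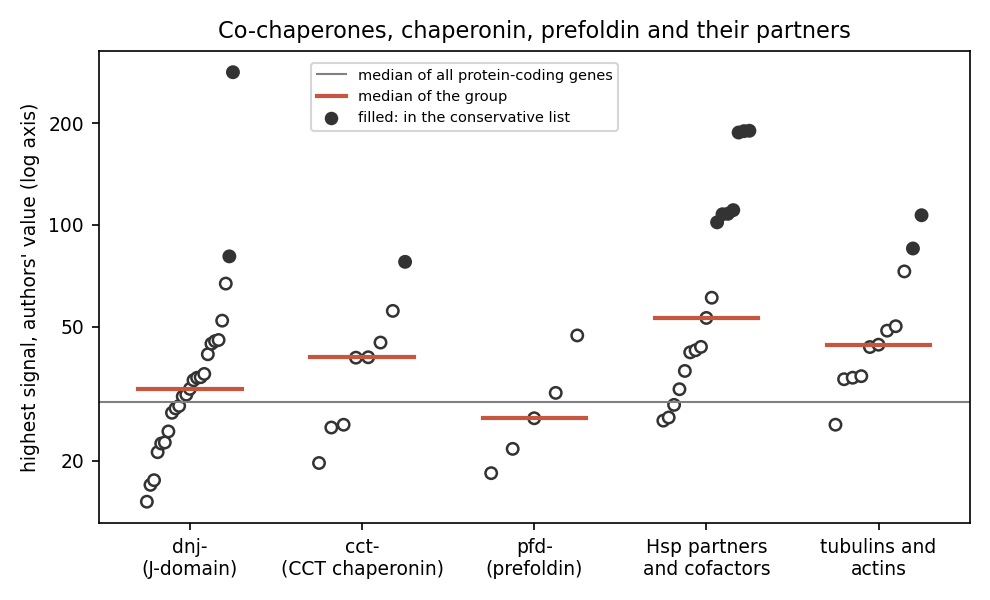
Highest signal (log axis, the authors' value without unit) of each gene in the 3 families, in Hsp partners and cofactors, and in the tubulin and actin genes; each circle is a gene, filled circles are in the conservative list, thick bars are group medians and the thin line is the median of all protein-coding genes. The medians are 32.7, 40.5, 26.8, 53.0 and 44.2 from left to right, and the cct and pfd genes all fall inside the range of the dnj genes, from 15.2 to 283.

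Of the 38 summits, 21 (55.3%) lay upstream of the nearest start of the gene, among them that of dnj-20, which is inside its longer transcripts, against 47.7% over all genes with a candidate and 82.8% over called genes. The median offset was -134 bp, against 33 bp and -221 bp, where a negative value is upstream. Within 500 bp of the start lay 27 of 38 (71.1%), against 54.4% and 70.6%.

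**Figure D3:**
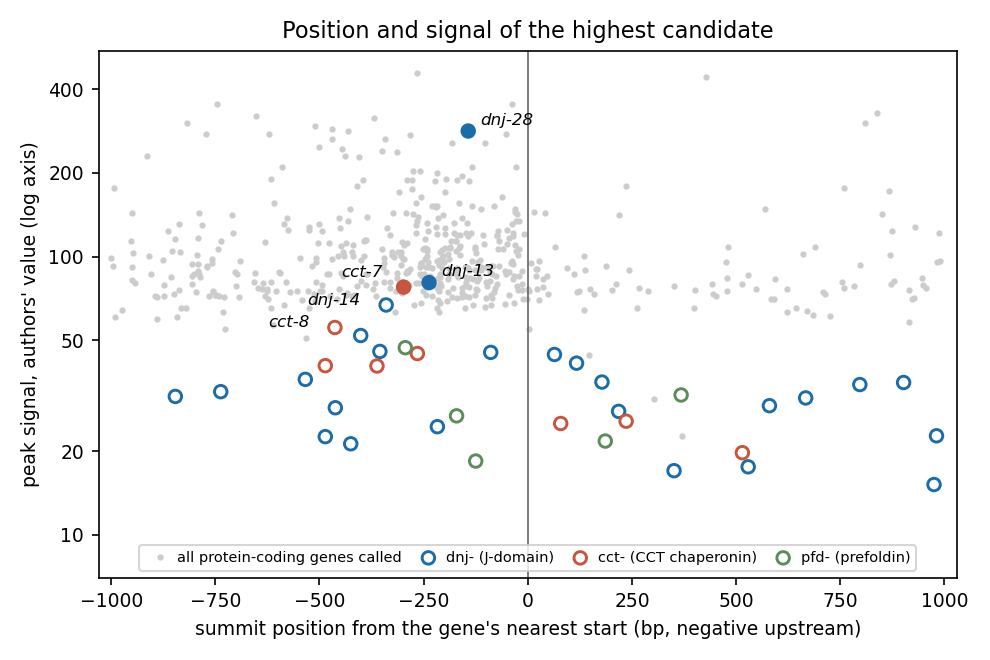
Position of the summit from the nearest start of the gene (bp, negative upstream) against signal (log axis, the authors' value without unit) for the 38 genes, filled where called, with all called protein-coding genes as grey points. The 8 genes with the highest signals, from dnj-28 to dnj-19, all have their summit upstream of that start, between -143 and -463 bp.

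By annotation, 13 of the 38 summits stood outside annotated genes, 12 in coding exons, 7 in introns, 3 in exons of non-coding RNAs and 3 in UTRs. The median signal was 40.6 outside genes, 28.2 in coding exons, 31.0 in introns, 67.0 in the 3 exons of non-coding RNAs and 31.8 in UTRs. These counts and medians are given without those over all genes, so they do not set the families apart. The 3 in non-coding exons are dnj-13, dnj-14 and dnj-19. The nearest start of any gene was the gene's own in 24 of 38 (63.2%), that of another protein-coding gene in 9 and that of a non-coding RNA in 5. Own starts were nearest in 77.6% of all genes with a candidate and in 53.5% of called genes.

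Many of these genes share their upstream region with a divergent gene, that is a neighbour on the other strand with a start within 1000 bp. This held for 21 of 43 (48.8%), against 18.3% of all protein-coding genes, and it does not depend on the ChIP-seq values. All 3 called genes were among the 21 (14.3%, interval 3.05 to 36.3), against 6.23% called of all genes with a divergent neighbour. Of the 22 others 0 were called, which allows up to 15.4% (upper end of the 95% interval), against 1.81% of all such genes. The median signal was 40.5 in the 20 divergent genes with a candidate and 31.5 in all divergent genes. It was 26.1 in the 10 with an upstream neighbour on the same strand, against 29.2, and 35.3 in the 8 with no neighbour, against 29.6. Divergent genes thus had the higher median, in the families as among all genes, and the part of this arrangement in the signals of the families was not tested.

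Both replicates' own ranked lists had a peak overlapping the highest candidate in 19 of the 38 genes. In 11 replicate 1 had none, in 13 replicate 2 had none, and in 5 of these neither had one. Of all 16092 genes with a candidate, 7477 had both. Of the same 16092 genes, replicate 1 had none in 5550, replicate 2 had none in 5385, and neither had one in 2320. The median over the 19 was 17.8 in replicate 1 and 20.96 in replicate 2. Replicate 2 was higher in 9 of 19 (47.4%), against 63.3% of the 7477 genes with both values, and the median log2 ratio of replicate 2 to replicate 1 was -0.04, against 0.22.

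The replicates differed most at dnj-19 and dnj-20, with log2 ratios of 1.64 and 1.63, and in the other direction at dnj-12 and cct-8, both -0.75. At the 3 called genes the log2 ratios were -0.06 for dnj-28, 0.13 for dnj-13 and -0.17 for cct-7, all small. The conservative list keeps peaks ranked alike in both replicates, so close values at called genes are favoured by the call itself. Over the 19 genes Spearman's rho between the replicates was 0.519 and Pearson's r of the log2 values was 0.733, as a description over genes that share the same 2 libraries. With the matched-peak columns, which have values for all 38 genes, rho was 0.310. Without dnj-28 they were 0.434 and 0.492, so Pearson's r rested in good part on that gene. Over all 7477 genes they were 0.321 and 0.455.

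**Figure D4:**
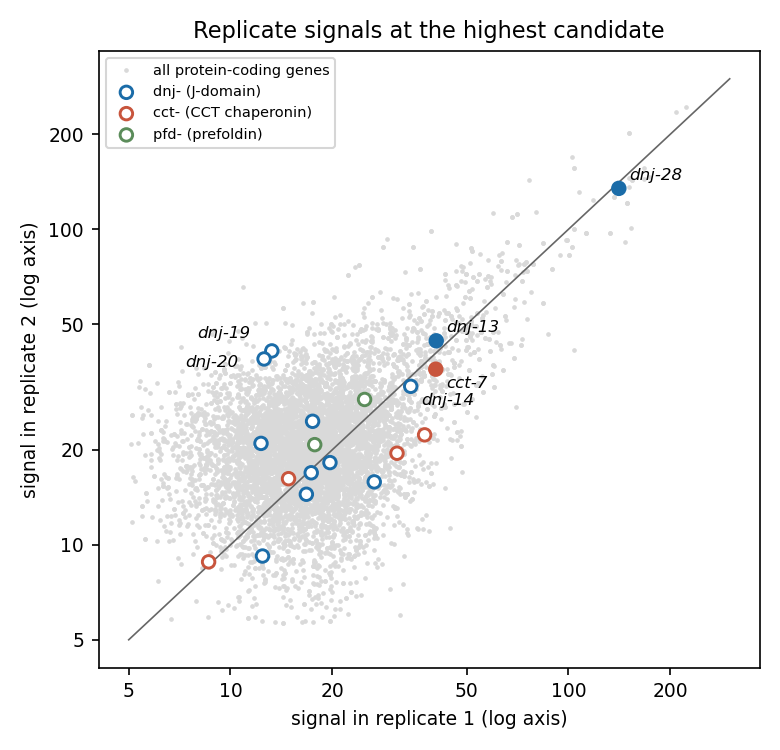
Signal in replicate 1 against signal in replicate 2 (log axes, the authors' values without unit) at the highest candidate, for the 19 genes with both values and for all protein-coding genes with both as grey points; the line marks equal values and filled circles are called genes. dnj-28, dnj-13 and cct-7 lie close to the line, which the call itself favours, while dnj-19 and dnj-20 lie above it with about 13 in replicate 1 and about 40 in replicate 2.

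The ranked list also gives, in a pair of columns, the signal of the matched peak in each of the lists compared by IDR. Over the 38 genes the first had a median of 14.3 (5.95 to 141) and the second 19.03 (7.42 to 135), and the second was higher in 22. They were not tied to the replicates by name. The first equalled the value of replicate 1's own list in 25 of the 27 genes that had one, and the second that of replicate 2 in 24 of 25, within 0.001. The exceptions were dnj-14 and pfd-5 in the first column and cct-4 in the second, where the matched peak was the lower. Over all genes with both replicate values, 518 of 7477 (6.93%) had a lower matched pair, against 3 of 19 here.

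The call depended on how the lists were made. With the optimal list dnj-14 joined, giving 4 of 43 (9.30%, interval 2.59 to 22.1), against 2.64% of all genes. In the list of replicate 1 alone dnj-28 and dnj-14 were called (2 of 43, 4.65%, interval 0.568 to 15.8), against 1.17%. In that of replicate 2 alone dnj-28 and dnj-13 were called, the same share, against 1.15%. Only dnj-28 was in all 4 lists. At a global IDR of 0.05 the same 3 genes were called (4.54% of all genes), and at 0.001 only dnj-28 (0.991%).

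ACGCGC occurred in the summit windows of 4 of the 38 genes (10.5%, interval 2.94 to 24.8), namely cct-5, cct-8, dnj-14 and dnj-19. It was in 3.13% of all genes with a candidate, a share inside that interval, and in 18.2% of called genes. GTACAC occurred in 2 (5.26%, interval 0.644 to 17.7), cct-5 and cct-8, against 3.14% and 12.8%. Both words were thus more frequent among called genes than among all genes with a candidate. They were taken from an earlier account of these data, so that difference is not an independent result. With 3 called genes the families are too few to be set against those shares. Of the heat shock type words, GAANNTTC was in 1 (2.63%, dnj-19) against 6.77% of all genes, and TTCNNGAA was in 3 (7.89%, cct-6, dnj-25 and dnj-30) against 6.49%. In wider windows of 100 bp either side each of them was in 23.7% of the 38. No share over all genes is given at that width, so the 23.7% cannot be set against 6.77% and 6.49%. The E-box CACGTG was in 1 (2.63%, pfd-3) against 2.47%. A match is a description of the letters in the window.

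The proteins these families work with were described by a list of 32 genes, chosen with earlier results of these data known, of which 31 were matched (daf-21, an older name of hsp-90, was not) and 9 (29.0%) were called, against the same 2.62% of all genes. Among the 17 matched Hsp partners and cofactors 7 were called and the median signal was 53.0. The highest were hsp-60, the mitochondrial chaperonin, with 189.9 (98.8 in replicate 1 and 92.7 in replicate 2) and hsp-90 with 189 (103 and 87.6). The Hsp90 activator gene ahsa-1 had 188 (101 and 82.9). These 3 were high in both replicates.

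Some genes of Hsp70, the partner of J-domain proteins, and of its nucleotide exchange factors were also among the called. The constitutive Hsp70 gene hsp-1 had 111 (46.8 in replicate 1 and 66.1 in replicate 2), and hsp-3, an Hsp70 of the endoplasmic reticulum, had 102 (32.9 and 73.0). The nucleotide exchange factor genes hsp-110 and bag-1 had 107 (68.9 and 39.0) and 108 (40.5 and 61.0). Each of these 4 lies above every gene of the 3 families other than dnj-28. The other Hsp70 genes of the list, hsp-4 and hsp-6, had 42.5 and 29.3 and were not called, and hsf-1, the heat shock factor gene, had 26.3.

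Of the 12 tubulin and actin genes, whose products prefoldin hands to CCT for folding, 11 had a candidate, the median was 44.2 and 2 were called. They were tbb-1 with 107 (49.4 in replicate 1 and 61.2 in replicate 2) and tbg-1, the gamma-tubulin gene, with 85.1 (37.1 and 46.9). The highest uncalled gene was act-4 with 72.8, which had 10.9 in replicate 1 and 65.8 in replicate 2 and was in the optimal list. Of the 2 further genes related to the families, rme-8, an endosomal J-domain protein, had 10.03 and uri-1, a prefoldin-like protein, had 21.7.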

How the data were processed

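ChIP-seq of tagged BED-2 was analysed from 8 peak lists on assembly ce11, 4 of the series and 4 of single replicates. Per the labels, the replicates are biological. The labels' description names an antibody against GFP, while their antibody field names the target, bed-2. The authors made each list from alignments and a control, per the text deposited beside the samples. The aligner was not given in the sources used here, nor was the caller. Each peak carries a signal value as the authors' caller gave it, without unit, and ranked lists hold the deposited −log10 of the global IDR, which ends at 5. Summit offsets were used as deposited. The lists hold no counts, so depth is unknown. The conservative list held 615 peaks, the optimal 626, those of replicates 1 and 2 alone 238 and 256, and the ranked list 82301 candidates. Of 635 ranked candidates with a global IDR of 0.01 or less, 20 were not in the conservative list, and 0 of these lay near a gene of the families.

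Genes and starts came from Ensembl release 115, sequence and protein products from RefSeq. Every peak was checked to end inside the reference chromosome. Replicate values are the highest signal among peaks of each replicate's own ranked list that overlap the candidate by at least 1 base. The matched-peak signals of the ranked list were used as values of the group, and 2 further per-sample columns were not used. The members, the partner list and the words were chosen with earlier results of these data known. Named genes are the called genes with their nearest and divergent neighbours, the 5 highest uncalled, the 3 lowest and those without a candidate, the extremes of each family, and the called and highest uncalled of the partner list. Other genes were named after their values were seen. With 1 group no test was made. Scripts were tested on simulated data. Alternatives covered the distance, the list, the IDR level, the choice of start, the word window and each replicate alone. Tools were Python 3.11.15, numpy 2.4.6, pandas 2.3.3, scipy 1.17.1, matplotlib 3.10.9, pysam 0.24.0, Biopython 1.88 and samtools 1.23.1.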

Additional observations from a re-analysis of the deposited data

How the results depend on the processing

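The 3 calls numbered 2 to 4 under the other distances, lists, IDR of 0.05, starts of protein-coding genes and single replicates (2 without replicate 1 and 2 without replicate 2). They fell to 1, dnj-28, at a global IDR of 0.001, and to 1 where only summits nearest to the gene among starts of all genes, non-coding included, were kept, an alternative chosen after seeing the data. The median signal of 32.3 became 29.5 within 500 bp and 29.1 with the nearest protein-coding start only. It was 18.7 to 20.96 in single replicates, whose lists have a lower scale. The median offset of called genes, -237 bp, became -143 at an IDR of 0.001 and -190 with the nearest protein-coding start only, and was -192.5 to -145 in single replicates. With called genes only, each of the 5 words fell to 0. With 100 bp either side GAANNTTC and TTCNNGAA both rose to 23.7%, and with 25 bp CACGTG fell to 0. No shares over all genes are given at these widths. Under the 7 alternatives run for it, 31 to 40 genes had a candidate. Spearman's rho of 0.519 was lower under each of the 4 run for it, at 0.310 with the matched-peak columns and up to 0.493 with the others. Without dnj-28, and with the candidate of the lowest IDR, both chosen after seeing the data, the median signal was 31.8 and 31.6. No paired analysis was possible because there is only 1 group. The causes of these shifts were not tested. Depth is unknown, so a gene without a candidate had none that these lists show, which does not show that BED-2 is absent there.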
